A study of Homo sapiens with 6 samples.

Results

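MYC and the factors that build ribosomes were followed in the MEC-1 cell line, established B cells from a patient with chronic lymphocytic leukemia. The set held 39 genes, chosen by name as MYC and nucleolar proteins of ribosome assembly. They were chosen with earlier results of these data known, so counts over them are descriptions. Of the 39, 37 were measured among the 18404 genes on the arrays that had a probe set naming 1 gene. For each gene the brightest such probe set was read. Total RNA was compared between 3 arrays from cells given a lentiviral short hairpin RNA (shRNA) against UGT2B17, an enzyme that couples glucuronic acid to steroids and other small molecules, and 3 arrays from cells given a scrambled shRNA. All cells were MEC-1 grown in the same medium with serum and without phenol red. The design text calls the replicates independent but names no separate cultures, and nothing says how many hairpin constructs were used. The p-values therefore reflect the spread among these 6 arrays alone, which may be technical, and effects of lower UGT2B17 and of the hairpin itself cannot be told apart. In bulk RNA, a change per cell and a change in the share of cells that express a gene cannot be told apart either. The members not measured on a probe set of their own were NOP56 and GNL3.

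MYC is a transcription factor that binds DNA as a dimer with MAX, often at the E-box sequence, and drives growth genes in B cells and their tumours. Ribosome biogenesis is a classical part of that programme: RNA polymerase I transcribes the ribosomal RNA precursor in the nucleolus, small nucleolar ribonucleoproteins (snoRNPs) modify it, and separate groups of assembly factors cut, fold and pack it with ribosomal proteins into the small and the large subunit. The level of these factors often follows the growth rate of a cell. MYC itself is controlled both at transcription and after it, in the latter case among others by the ubiquitin ligase subunit FBXW7.

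UGT2B17, the targeted gene, was dim: its level lay at the 1.98 percentile of all genes, near that of the monocyte marker LYZ, and the files give no detection call for it. Its log2 signal was 3.19, 3.27 and 3.17 on the knockdown arrays and 3.95, 3.69 and 3.91 on the scrambled arrays (replicates 1, 2 and 3), so the groups did not overlap. It fell by 0.64 on the log2 scale, with a standard error (SE) of 0.08 (limma, adjusted p = 0.00654). That direction matches the labels, but RMA shrinks differences so near the floor, so the size of the knockdown cannot be read from it. The B cell markers MS4A1, CD79A, CD79B, PAX5, CD22 and BLK had mean log2 signals from 9.60 to 12.3, and none of the 6 passed the test. Means were at most 7.13 for T and NK cell markers, 6.24 for monocyte and granulocyte markers and 6.61 for erythroid and platelet markers, and 0 of these genes passed. Among epithelial and fibroblast markers, with means up to 8.37, KRT18 rose (log2 fold change 0.32, adjusted p = 0.0494), and 3 of the 8 lay below 0. EPCAM read -0.36 and did not pass (adjusted p = 0.140), and without scrambled replicate 3 it fell by 0.47 (adjusted p = 0.0411). Over all genes the array furthest from its own group was scrambled replicate 3, with a root mean square deviation from the group mean of 0.138 log2 units against 0.0771 to 0.112 on the other arrays.

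No member passed the test between the groups. MYC and NPM1 had values above 0, and all other measured members had values below 0. All values below are on the log2 scale of the deposited signals, and fold changes are knockdown minus scrambled. Of 37 measured members, 0 were higher and 0 lower at a Benjamini-Hochberg adjusted p under 0.05 (limma over 18404 genes), where 3.61% of all genes were called (1.92% higher and 1.69% lower), and the lowest adjusted p was 0.130, for WDR74. At an unadjusted p under 0.05, 6 members were lower and 1, MYC, was higher, where 9.45% of all genes were lower and 8.7% higher. Of the 8196 genes at least as bright as the dimmest member, 1211 were lower and 922 higher at that threshold. The log2 fold change was below 0 for 35 of 37 members, against 50.7% of all genes, and its median was -0.22, against -0.002 over all genes. Among the equally bright genes, 4698 of 8196 lay below 0, with a median of -0.03.

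The scrambled arrays did not share this pattern equally. Scrambled replicate 3 was the highest of the 6 arrays for 35 of 37 members, or 94.6%, against 28.9% of all genes and 43.7% of the 8196 genes at least as bright as the dimmest member. Averaged over the 37 members, the deviation from each gene's mean over 6 arrays was 0.44 on scrambled replicate 3. It was -0.12 on scrambled replicate 1 and 0.00 on scrambled replicate 2, and -0.12, -0.08 and -0.12 on knockdown replicates 1, 2 and 3. Scrambled replicate 1 was thus as low as the lowest knockdown array, and 1 array held most of the distance between the groups. Without that array the median log2 fold change of the members was -0.06, 24 of 37 lay below 0, against 50.2% of all genes, and again 0 members passed, where 4.12% of all genes did, 2.12% as higher and 2.0% as lower (limma, lowest adjusted p = 0.114, for MYC). With arrays weighted by their fit, which gave scrambled replicate 3 the lowest weight, 5 members passed: MYC rose by 0.17, where 9.79% of all genes were called higher, and DKC1, NHP2, UTP4 and WDR74 fell by 0.24, 0.20, 0.25 and 0.25, where 9.29% were called lower. The members were chosen with earlier results of these data known, so these counts describe the set. What set scrambled replicate 3 apart was not tested.

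**Figure D1:**
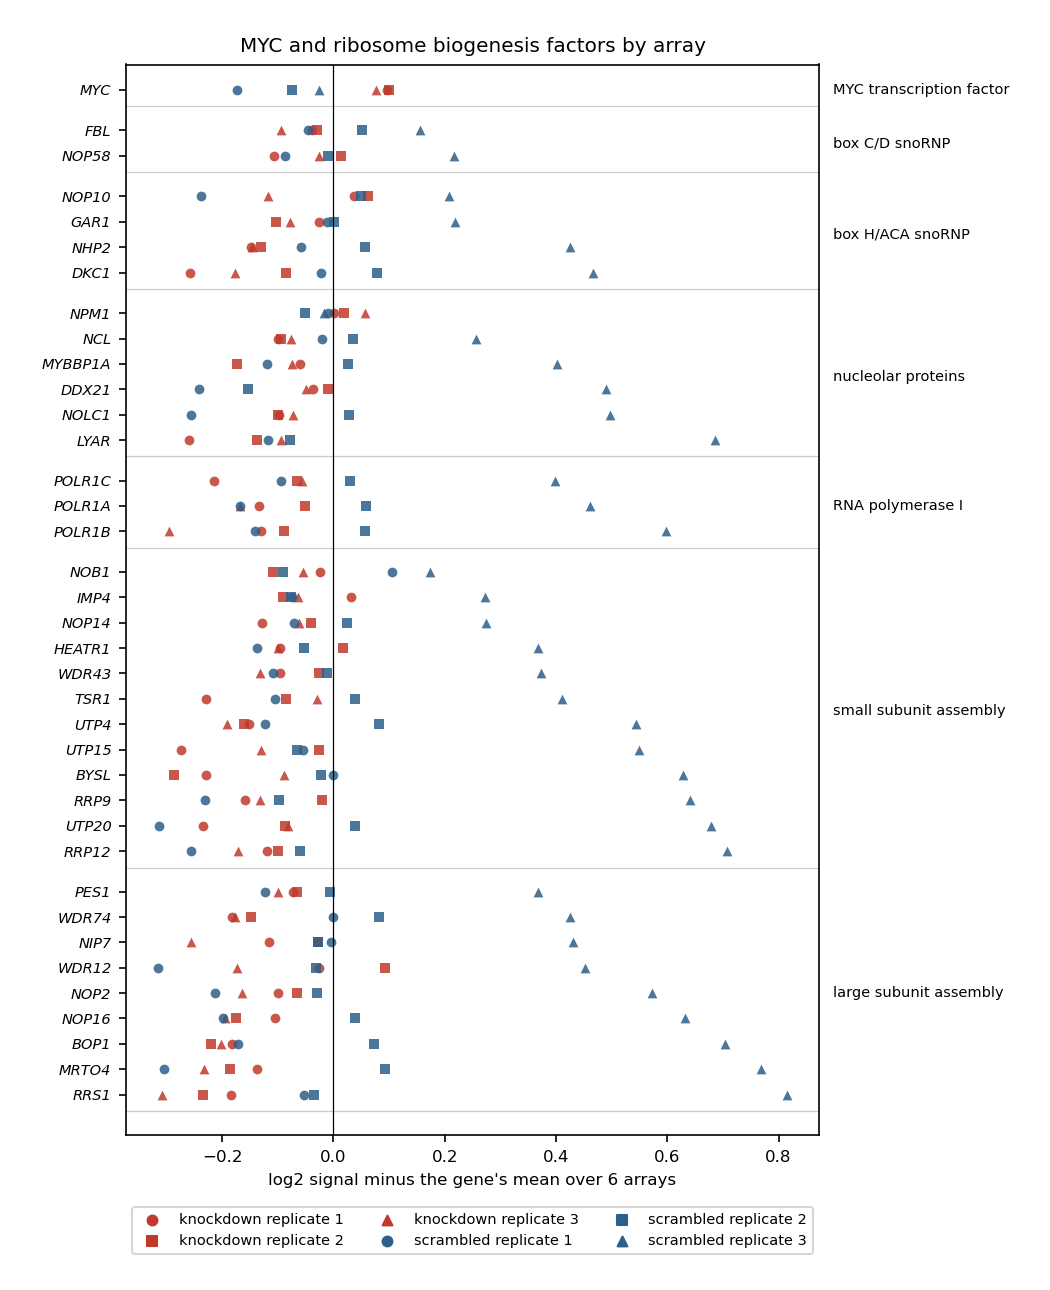
Log2 signal of each of the 37 measured members minus its mean over the 6 arrays (x axis), in rows grouped by role; red symbols are knockdown arrays, blue symbols scrambled arrays, and the shape gives the replicate. Scrambled replicate 3 (blue triangles) is the rightmost point in 35 of 37 rows, and MYC and NPM1 are the exceptions.

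The transcription factor itself, MYC, was the member with the most positive fold change. Its log2 signal was 10.80, 10.80 and 10.78 on the knockdown arrays and 10.53, 10.63 and 10.68 on the scrambled arrays. Every knockdown array lay above every scrambled array, and scrambled replicate 3 was not set apart from its group. On the log2 scale it differed by 0.18 ± 0.07 (SE; 95% interval 0.03 to 0.33) and did not pass over all genes (limma, adjusted p = 0.188). A two-sided exact permutation test gave p = 0.1, the smallest that 3 against 3 arrays allow. Without scrambled replicate 3 the value was 0.21 ± 0.06 (adjusted p = 0.114).

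Among 17 measured genes of the MYC network, FBXW7 rose and 16 did not pass. Of all genes, 1.92% were called higher and 1.69% lower. FBXW7 is a substrate receptor of the ubiquitin ligase that marks MYC for degradation. It read 8.13, 8.36 and 8.28 on the knockdown arrays and 7.97, 7.78 and 7.89 on the scrambled arrays, without overlap. Of all genes, 11.8% read higher without overlap. The log2 fold change of FBXW7 was 0.38 ± 0.08 (SE; limma, adjusted p = 0.0446), and without scrambled replicate 3 it was 0.38 with the call lost (adjusted p = 0.0605). MXI1, a MAX partner that represses E-box genes, read 0.29 ± 0.10 and MYCL, a MYC paralogue, 0.17 ± 0.06, and neither passed. RUVBL2, an ATPase of chromatin and snoRNP assembly complexes, read -0.38 ± 0.15 and did not pass. The list's median was 0.03.

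The E-box, the site MYC and MAX bind, was searched in the members' promoters, since ribosome biogenesis is a classical part of the MYC programme. The motif was CACGTG, which reads the same on both strands, in windows from 250 bases before to 50 bases after each gene's start (RefSeq, build GRCh38.p14). Of 33 members with a window in the table, 17 held the motif, or 51.5%, against 8.77% of all 27305 genes with a window and 10.9% of the 15843 protein-coding ones. That share describes genes named for ribosome assembly and says nothing about these arrays. The excess of scrambled replicate 3 had a median of 0.54 for the 16 measured members with the motif and 0.51 for the 15 without it, and the median log2 fold changes were -0.19 and -0.23. These medians are a description, and whether the motif bears on the values was not tested. The motif copies of the members whose values by array are given below are shown next, 30 bases each, 5′ to 3′ on the gene's strand, with the E-box in capitals.
FBL: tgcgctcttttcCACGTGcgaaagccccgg
GAR1: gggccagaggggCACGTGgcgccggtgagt
LYAR: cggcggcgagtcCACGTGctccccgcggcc
MYBBP1A: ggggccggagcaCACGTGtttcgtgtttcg
BYSL: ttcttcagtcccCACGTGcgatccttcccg
UTP4: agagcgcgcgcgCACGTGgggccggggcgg
These stretches lie at chr19:39846356-39846385 on the minus strand for FBL, chr4:109815781-109815810 on the plus strand for GAR1 and chr4:4290068-4290097 on the minus strand for LYAR. They lie at chr17:4555340-4555369 on the minus strand for MYBBP1A, chr6:41921515-41921544 on the plus strand for BYSL and chr16:69132621-69132650 on the plus strand for UTP4. The motif began 64 bases before the start for LYAR and 16 before it for UTP4, and in the first 32 bases after it for the other 4. A match is a description of the sequence and not evidence that MYC was bound there in these cells.

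The box C/D snoRNP carries the methyltransferase that modifies ribosomal RNA. Its median log2 fold change was -0.09, the nearest to 0 of the role groups of factors, but over only 2 measured genes. Without scrambled replicate 3 the median was -0.024, and that of the nucleolar proteins was nearer to 0, at -0.016. FBL, that methyltransferase, read 11.44, 11.45 and 11.39 on the knockdown arrays and 11.43, 11.53 and 11.64 on the scrambled arrays, and the groups overlapped. Its log2 fold change was -0.11 ± 0.07. NOP58, a core protein of the same particle, read 10.12, 10.23 and 10.19 against 10.13, 10.21 and 10.44, with a log2 fold change of -0.08 ± 0.09. Neither passed. NOP56, the partner of NOP58, was read only on a probe set that also names the snoRNA SNORD56. That probe set gave 7.93, 8.04 and 7.95 against 8.12, 8.16 and 8.59, a difference of -0.32. Scrambled replicate 3 exceeded the mean of the other 5 arrays there by 0.55. Which of the 2 genes gave the signal cannot be read from it, and it is not in the group's median.

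The box H/ACA snoRNP, which converts uridines of ribosomal RNA to pseudouridine, had lower readings for its enzyme. DKC1, the pseudouridine synthase dyskerin, read 8.48, 8.65 and 8.56 on the knockdown arrays and 8.71, 8.81 and 9.20 on the scrambled arrays. The groups did not overlap. The log2 fold change was -0.35 ± 0.12 (SE; 95% interval -0.62 to -0.07; limma, adjusted p = 0.171), and -0.20 ± 0.07 without that array (adjusted p = 0.198). NHP2, a structural subunit, read 9.34, 9.36 and 9.35 against 9.43, 9.55 and 9.92, with a log2 fold change of -0.28 ± 0.11. GAR1, another subunit, read 7.83, 7.75 and 7.78 against 7.85, 7.86 and 8.08, with a log2 fold change of -0.14 ± 0.08. NOP10, the smallest subunit, had a log2 fold change of -0.01 ± 0.11 and overlapping groups. None of the 4 passed. For NHP2, a gene of chromosome 5, the brightest probe set lies by its number between probe sets of chromosome 10 genes (20 of 20 neighbours). The dimmer NHP2 probe set, whose 20 neighbours are all on chromosome 5, differed by -0.18 on the log2 scale.

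RNA polymerase I, the enzyme of ribosomal RNA synthesis, was represented by 3 subunits, and for each the groups overlapped. POLR1A, the largest catalytic subunit, read 8.61, 8.69 and 8.58 on the knockdown arrays and 8.58, 8.80 and 9.21 on the scrambled arrays, a log2 fold change of -0.23 ± 0.14. POLR1B, the second largest, read 8.59, 8.63 and 8.42 against 8.58, 8.77 and 9.31, or -0.34 ± 0.17. POLR1C, shared with RNA polymerase III, read 7.83, 7.98 and 7.99 against 7.95, 8.07 and 8.44, or -0.22 ± 0.12. In all 3, scrambled replicate 1 lay within or next to the knockdown range and scrambled replicate 3 above every other array by at least 0.37. Without that array the values were -0.06, -0.13 and -0.08. Of 19 other genes of this polymerase and of ribosomal DNA transcription, 0 passed (limma, lowest adjusted p = 0.0572, for POLR2E, a subunit shared by the nuclear RNA polymerases). At an unadjusted p under 0.05 by limma 2 were higher and 4 lower, where 8.7% and 9.45% of all genes were. POLR2E had a log2 fold change of 0.52 ± 0.12, and without scrambled replicate 3 it rose by 0.67 ± 0.07 (adjusted p = 0.00497). TAF1D, of the promoter selectivity factor, and the shared subunits POLR2L and POLR2F read 0.22 ± 0.07, -0.42 ± 0.14 and -0.36 ± 0.14 and did not pass.

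Of the 6 measured nucleolar proteins with broader roles, NPM1 stood apart from the others by its values. NPM1, nucleophosmin, an abundant chaperone of ribosome export, read 12.24, 12.25 and 12.29 on the knockdown arrays and 12.22, 12.18 and 12.22 on the scrambled arrays, and scrambled replicate 3 did not stand out. NCL, nucleolin, which binds the ribosomal RNA precursor, read 11.50, 11.50 and 11.52 against 11.57, 11.63 and 11.85, without overlap. The log2 fold change was 0.05 ± 0.06 for NPM1 and -0.18 ± 0.08 for NCL, and neither passed. Another NPM1 probe set gave a difference of 0.05, and the dimmest, at 4.34 ± 0.13 (SD, n = 3) on the knockdown arrays, gave -0.19. The dimmest is the one whose 20 neighbours by number are all on NPM1's chromosome, so the NPM1 reading depends on the probe set.

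LYAR, a nucleolar zinc finger protein, read 7.15, 7.28 and 7.32 on the knockdown arrays and 7.30, 7.33 and 8.10 on the scrambled arrays. MYBBP1A, a nucleolar MYB-binding protein, read 7.66, 7.55 and 7.65 against 7.60, 7.75 and 8.12. In both genes the other scrambled arrays lay within 0.1 of the highest knockdown array, and only scrambled replicate 3 was higher than that. Their log2 fold changes of -0.33 ± 0.19 and -0.20 ± 0.12 became -0.07 and -0.06 without it. NOLC1, a snoRNP chaperone, went from -0.18 ± 0.16 to 0.02. DDX21, an RNA helicase of ribosomal RNA synthesis and processing, went from -0.06 ± 0.17 to 0.17 ± 0.06, where the groups no longer overlapped (17.4% of all genes lay higher so) and the unadjusted p was 0.0293 (limma, adjusted p = 0.210).

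**Figure D2:**
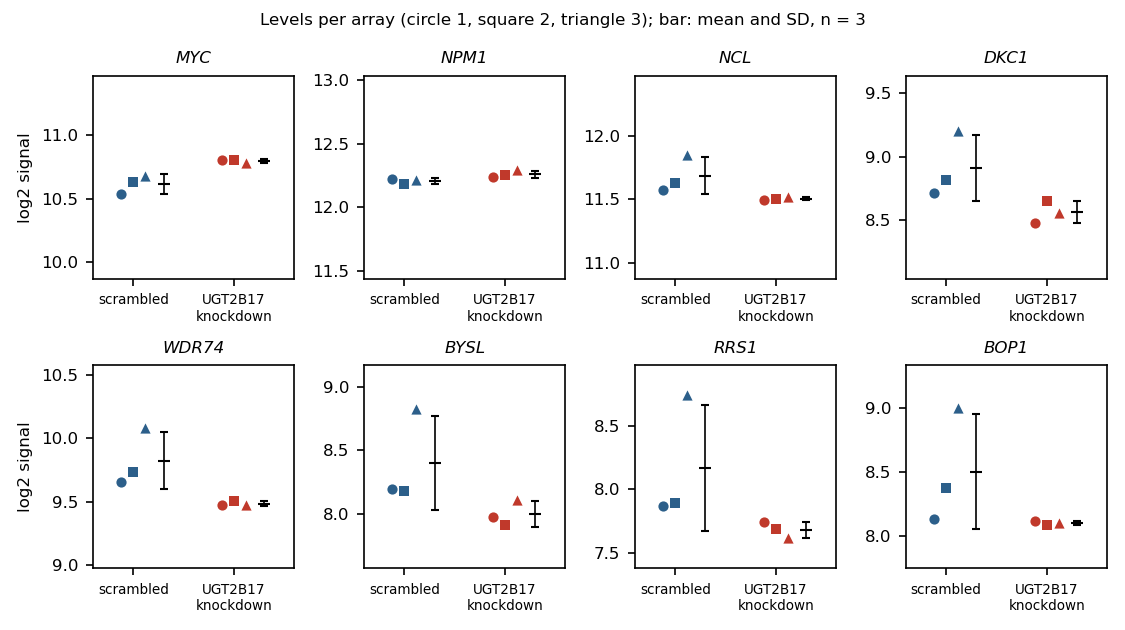
Log2 signal (y axis, spanning 1.6 log2 units in each panel) on each scrambled (blue) and knockdown (red) array for 8 members, with the mean and SD over 3 arrays at the right of each group. All 8 are among the members whose groups did not overlap (10 lower and 2 higher of 37), so they do not stand for the whole set. The SD is smaller on the knockdown arrays in every panel but that of NPM1. For MYC the knockdown arrays lie above all scrambled arrays. In the panels from NCL to BOP1 the triangle of scrambled replicate 3 lies above every other point.

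The factors of the small subunit, 12 in number, all had log2 fold changes below 0, from -0.40 to -0.08, and none passed. BYSL, which acts late in processing of the 18S precursor, read 7.97, 7.92 and 8.11 on the knockdown arrays and 8.20, 8.18 and 8.83 on the scrambled arrays, without overlap. Its log2 fold change was -0.40 ± 0.16 (SE; limma, adjusted p = 0.228), and -0.19 ± 0.07 without scrambled replicate 3 (adjusted p = 0.232). UTP4, a subunit of the complex that joins the nascent ribosomal RNA first, read 10.45, 10.44 and 10.41 against 10.48, 10.69 and 11.15, or -0.34 ± 0.15. UTP15, of the same complex, read 7.71, 7.95 and 7.85 against 7.93, 7.92 and 8.53, and the groups overlapped. UTP4 and BYSL were the 2 of these 12 factors whose groups did not overlap. Of all genes, 13.1% read lower without overlap, as did 1710 of the 8196 genes at least as bright as the dimmest member.

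Of the remaining 9 small subunit factors, 5 had values of 0 or above without scrambled replicate 3 and 4 stayed below 0. RRP9, a protein of the U3 snoRNP, UTP20 and RRP12, large scaffold proteins, HEATR1, a partner of UTP4 and UTP15, and IMP4, of the U3 complex, had log2 fold changes of -0.21, -0.27, -0.26, -0.12 and -0.08. Without that array these became 0.06, 0.00, 0.03, 0.04 and 0.03. WDR43, NOP14, TSR1 and NOB1, the endonuclease that makes the mature 18S end, went from -0.17, -0.15, -0.23 and -0.13 to -0.02, -0.05, -0.08 and -0.07. Scrambled replicate 3 exceeded the mean of the other 5 arrays by 0.21 (NOB1) to 0.85 (RRP12) among the 12, with a median of 0.57.

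The factors of the large subunit, 9 in number, had the lowest median among the role groups, -0.32, and again none passed. Without scrambled replicate 3 that rank was lost: the median was -0.08, and that of box H/ACA was -0.10. WDR74, which works with an ATPase that remodels the precursor, read 9.47, 9.51 and 9.48 on the knockdown arrays and 9.65, 9.73 and 10.08 on the scrambled arrays, without overlap. Its log2 fold change was -0.34 ± 0.11 (SE; 95% interval -0.58 to -0.10; limma, adjusted p = 0.130), and -0.21 ± 0.06 without scrambled replicate 3 (adjusted p = 0.116). RRS1, which brings the 5S ribosomal RNA particle in, read 7.74, 7.69 and 7.61 against 7.87, 7.89 and 8.74, or -0.49 ± 0.20. This was the most negative value of the 37, and it was -0.20 ± 0.06 without that array (adjusted p = 0.152).

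The PeBoW complex of BOP1, PES1 and WDR12, needed to process the large subunit RNAs, had no member that passed. BOP1 read 8.12, 8.08 and 8.10 on the knockdown arrays and 8.13, 8.37 and 9.003 on the scrambled arrays, or -0.40 ± 0.19. PES1 and WDR12 read -0.16 ± 0.12 and -0.07 ± 0.17 with overlapping groups. Without scrambled replicate 3 the 3 values were -0.15, -0.01 and 0.14. Another BOP1 probe set gave a difference of -0.37. Of the other 4 factors, MRTO4, NOP16, NIP7 and the methyltransferase NOP2 had log2 fold changes of -0.37, -0.32, -0.27 and -0.22. Without that array they were -0.08, -0.08, -0.12 and 0.01.

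Over the whole set, 10 members read lower and 2 higher in the knockdown with no overlap between groups, where 13.1% and 11.8% of all genes did. Of the 8196 genes at least as bright as the dimmest member, 1710 read lower and 1257 higher in this way. The 10 were DKC1, NHP2, GAR1, NCL, UTP4, BYSL, BOP1, NIP7, RRS1 and WDR74, and the 2 were MYC and NPM1. At an unadjusted p under 0.05 without scrambled replicate 3, 4 members were lower, DKC1, BYSL, RRS1 and WDR74, and 2 higher, MYC and DDX21. The shares of all genes were 8.85% and 9.17%, so these counts lay near the background.

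**Figure D3:**
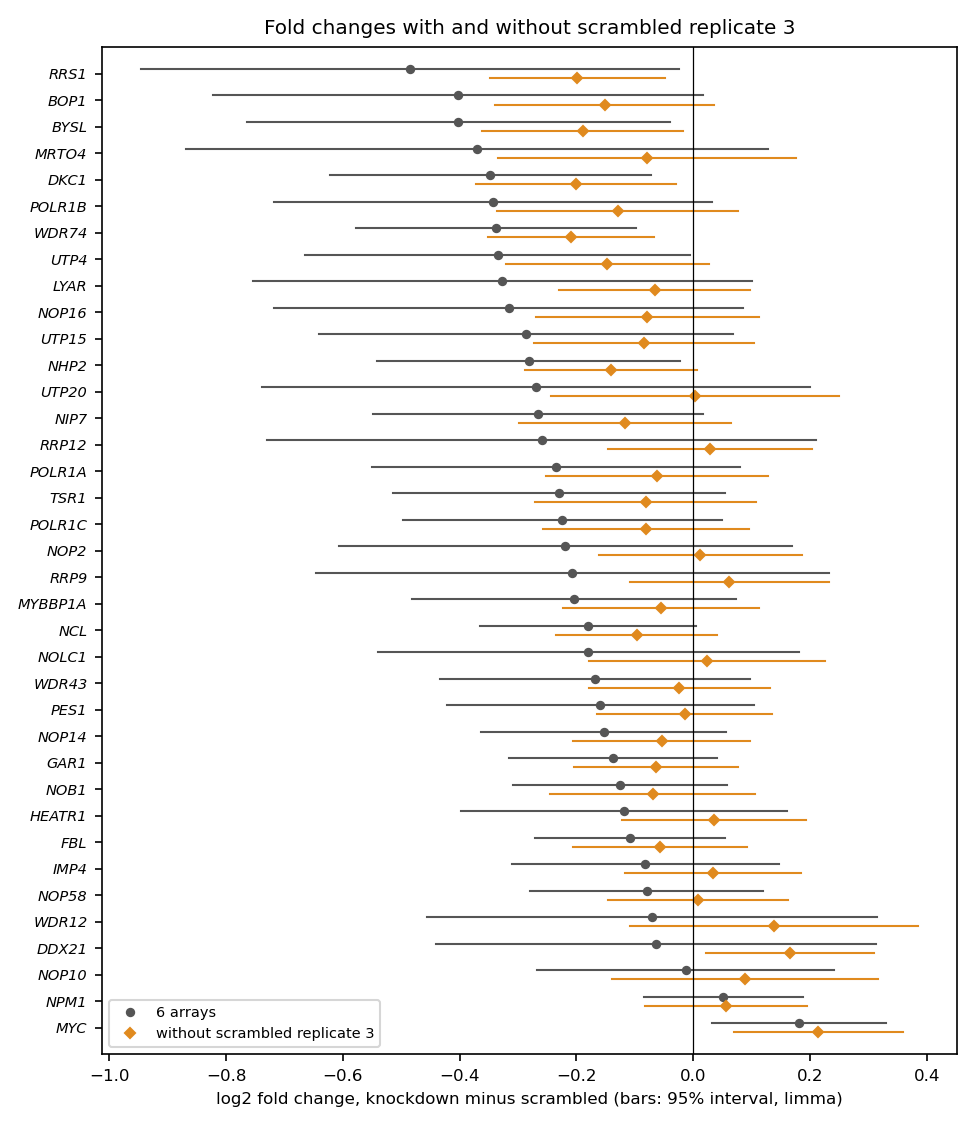
Log2 fold change, knockdown minus scrambled, of each measured member with its 95% interval from limma, from all 6 arrays (grey circles) and without scrambled replicate 3 (orange diamonds). The grey values run from -0.49 (RRS1) to 0.18 (MYC), the orange ones from -0.21 (WDR74) to 0.21 (MYC), and most orange intervals are narrower and cross 0.

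The spread within the groups differed as well. The SD over the 3 scrambled arrays was larger than over the 3 knockdown arrays for 36 of 37 members, or 97.3%. That was so for 62.1% of all genes and 72.4% of the 8196 genes at least as bright as the dimmest member. The median SD of the members was 0.27 for the scrambled arrays and 0.05 for the knockdown arrays, against 0.10 and 0.07 over all genes. The excess of scrambled replicate 3 over the mean of the other 5 arrays had a median of 0.52 over the members and ran from -0.03 for MYC to 0.98 for RRS1, a 1.97-fold higher signal. By role group the median of this excess was 0.22 for box C/D (2 genes, without NOP56), 0.39 for box H/ACA and 0.54 for nucleolar proteins. It was 0.55 for RNA polymerase I, 0.57 for the small subunit and 0.69 for the large subunit.

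Other ribosome assembly factors, from lists that hold no member, showed the same array on top. These lists, too, were chosen with earlier results of these data known. Of 43 further small subunit factors 0 passed by limma. At an unadjusted p under 0.05, 7 were lower and 0 higher, where 9.45% of all genes were lower and 8.7% higher. Of the 8196 genes at least as bright as the dimmest member, 1211 were lower and 922 higher. The median log2 fold change of these 43 factors was -0.15, and scrambled replicate 3 was highest for 41. Their lowest p values belonged to RIOK2, a kinase of late small subunit assembly, at -0.30 ± 0.08, NOL11, which is needed for ribosomal RNA transcription, at -0.48 ± 0.13, PWP2 at -0.31 ± 0.09 and WDR75 at -0.20 ± 0.07. NOL11 fell without scrambled replicate 3, by 0.31 on the log2 scale (limma, adjusted p = 0.0334). It was 1 of 43 called in that fit, where 2.0% of all genes were called lower. Of 43 further large subunit factors 0 passed by limma. At an unadjusted p under 0.05, 7 were lower and 0 higher, against the same shares of all genes. The median was -0.12, and scrambled replicate 3 was highest for 36. RRP15 read -0.45 ± 0.13 and fell by 0.28 without scrambled replicate 3 (limma, adjusted p = 0.0405). It, too, was 1 of 43 called in that fit, against the same 2.0% of all genes. NVL, an ATPase that acts on the precursor, read -0.22 ± 0.07, SBDS, which frees the subunit for translation, -0.39 ± 0.12 and DDX56, a helicase, -0.32 ± 0.11, and these 3 passed in neither fit. Medians without that array were -0.03 and -0.02.

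Ribosomal proteins had a median near that of all genes. Of 58 measured ribosomal protein genes 0 passed by limma. At an unadjusted p under 0.05, 2 were lower and 1 higher, where 9.45% and 8.7% of all genes were. The median log2 fold change was -0.005. Scrambled replicate 3 was highest for 17, or 29.3%, against 28.9% of all genes and 43.7% of the genes at least as bright as the dimmest member. The lowest p values were those of RPL22 (-0.25 ± 0.07), RPS23 (-0.29 ± 0.11), RPL8 (0.15 ± 0.06) and RPL23 (-0.18 ± 0.09). These genes have many processed copies in the genome and probe sets for them can pick up more than 1 copy. On these arrays 21 of the 79 listed were not measured on a probe set of their own.

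Other known MYC target genes, outside ribosome assembly, had 1 gene that passed. Of 28 measured, CCND2, the G1 regulator cyclin D2, fell and 27 did not pass, with a median of -0.15. Of all genes, 3.61% were called, 1.69% as lower, and 2.0% were called lower without scrambled replicate 3. CCND2 read 7.18, 7.26 and 7.28 on the knockdown arrays and 7.89, 7.92 and 8.46 on the scrambled arrays, and it fell by 0.85 ± 0.14 (SE; limma, adjusted p = 0.0153) and by 0.67 ± 0.06 without scrambled replicate 3 (adjusted p = 0.00304). CDC25A, a cell cycle phosphatase, FKBP4, a chaperone partner, and ATIC, of purine synthesis, read -0.51 ± 0.15, -0.46 ± 0.15 and -0.33 ± 0.11 and did not pass. Scrambled replicate 3 was the highest array for 24 of the 28. That was so for 28.9% of all genes and 43.7% of the genes at least as bright as the dimmest member. Genes of the p53 response, which senses failed ribosome assembly, had a median of 0.04 over 10 measured, and 9 did not pass. CDKN2A, whose products include the MDM2 inhibitor ARF, fell by 0.56 ± 0.07 (limma, adjusted p = 0.00723), where 1.69% of all genes were called lower. MDM2, CDKN1A and MDM4 read -0.24 ± 0.09, 0.23 ± 0.09 and 0.18 ± 0.10 and did not pass.

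**Figure D4:**
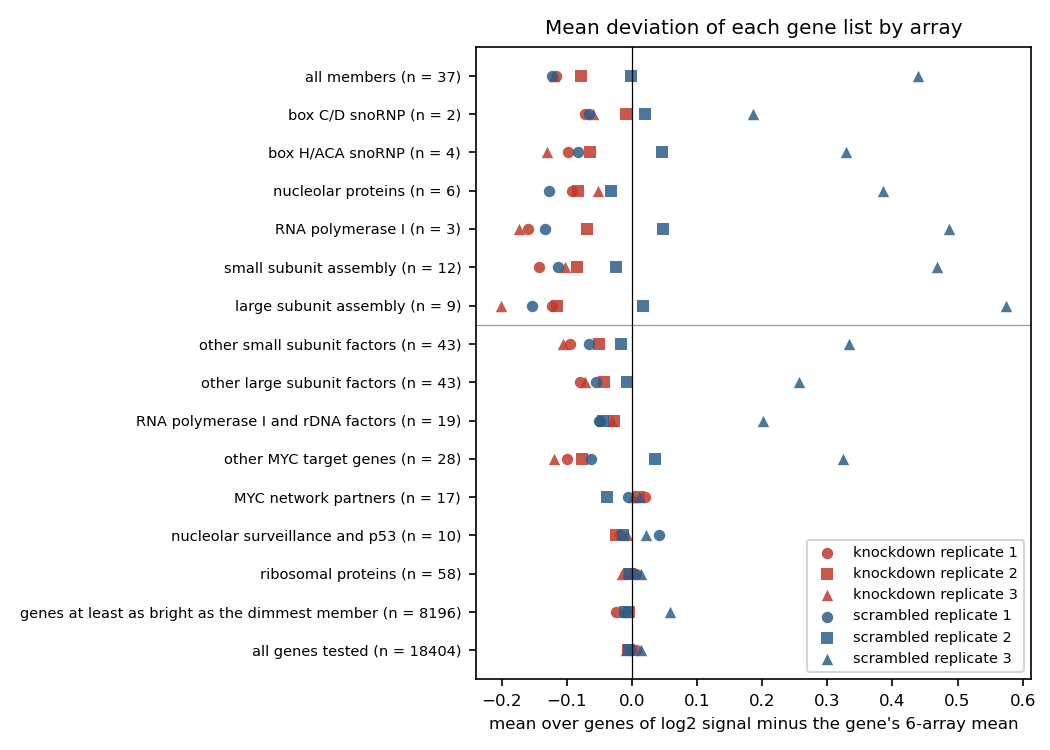
Mean over the genes of each list of the log2 signal minus the gene's mean over 6 arrays (x axis), for each array; role groups of the members are above the grey line, other lists and all genes below it, and n is the number of genes measured. Scrambled replicate 3 (blue triangles) is at 0.44 for all members, 0.33 and 0.26 for the other small and large subunit factors, and 0.01 for ribosomal proteins and for all genes.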

How the data were processed

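Expression was measured on 6 Affymetrix arrays of biotin-labelled total RNA, 1 per sample, per the labels. The authors deposited log2 values for 32321 probe sets, made with RMA (background correction, quantile normalisation, probe summary) per the submitters' processing notes; no version or build was found in the labels or notes. RMA shrinks differences of dim probe sets, and after quantile normalisation a shift common to most genes cannot be seen. The number of arrays limits the precision. Probe sets were named through the platform annotation: 19158 name 1 gene, 1388 name several and 11775 are unnamed here. For each of 18404 genes the brightest single-gene probe set was kept, with no filter on dim ones.

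The groups' difference was fitted per gene by limma 3.58.1 under R 4.3.3 (lmFit, eBayes, two-sided, no covariate, Benjamini-Hochberg over all genes, threshold 0.05), with and without scrambled replicate 3. Every member is named; values by array are given for MYC and up to 3 members per role group, and other lists name up to 4 genes, by lowest p; NPM1's were added after its values were seen. Members and lists were chosen with earlier results of these data known. Alternatives were repeated quantile normalisation, median centring, brighter genes only, an intensity trend, array weights, the mean of a gene's probe sets, a fit on all deposited probe sets, a block for the replicate number, and leaving out each array.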

Additional observations from a re-analysis of the deposited data

How the results depend on the processing

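In 13 of the 14 alternatives, 0 members passed; the exception was array weights, with 5 called (MYC 0.17, DKC1 -0.24, NHP2 -0.20, UTP4 -0.25 and WDR74 -0.25; limma, adjusted p 0.0162 to 0.0476). That setting gave scrambled replicate 3 a weight of 0.250 and scrambled replicate 2 one of 6.12, and called 19.1% of all genes. Leaving out single arrays, the median log2 fold change of the members ran from -0.34 to -0.06, the end nearest 0 being without scrambled replicate 3, and the members called stayed at 0; the lowest adjusted p over the members was 0.0638, without scrambled replicate 1. Over the pathway lists 3 of 216 genes passed; the count was 1 with all deposited probe sets, 31 with array weights, 5 with brighter genes only and 1 to 5 with single arrays left out. Signs of uncalled members turned for DDX21, IMP4 and WDR12 with array weights (0.11, 0.0089 and 0.010), NPM1 with the mean of its probe sets (-0.030) and NOP10 with repeated normalisation (0.015). Leaving out single arrays, the highest values were NOP10 0.088, NOP58 0.0089, NOLC1 0.023, DDX21 0.17, HEATR1 0.036, RRP9 0.061, IMP4 0.034, UTP20 0.0032, RRP12 0.029, WDR12 0.14 and NOP2 0.012, all without scrambled replicate 3, and the lowest were -0.14, -0.14, -0.35, -0.20, -0.22, -0.37, -0.14, -0.49, -0.45, -0.25 and -0.38 in the same order. Arrays of the same replicate number did not deviate together over all genes (correlations -0.05, -0.07 and -0.03). That shows no shared shift by number, but it cannot decide whether same-numbered samples were made together, which the labels do not say. With the replicate block 0 members passed, the median was -0.22, and 367 genes in all were called. NOP10 also turned without knockdown replicate 3 and without scrambled replicate 2. The cause of these changes was not tested.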
